A study of Mus musculus with 6 samples.

Results

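Kupffer cells are the macrophages that live in the liver sinusoids. The genes described here are 9 that mark them, namely Clec4f, Vsig4, Timd4, Cd5l, Marco, Folr2, Cd163, Nr1h3 and Id3, chosen by symbol from 55536 gene rows. Bulk tumor RNA was sequenced in 3 control libraries, which the labels call untreated (controls 5, 6 and 7), and in 3 libraries of the GOx-DOX-LGP group (tumors 1, 2 and 5). GOx-DOX-LGP is a nanogel with glucose oxidase (GOx) in a gelatin-protamine core and doxorubicin (DOX) in a shell of PLGA and lipid, injected intravenously. In both groups, HCA-1 cells (a hepatocellular carcinoma line from mouse) had been placed under the liver capsule of male C3H animals (substrain C3H/HeNCrNarl per the methods) aged 6 to 8 weeks, whose surrounding liver has Kupffer cells of its own. The labels give injections on days 18, 19 and 20, yet date the RNA analysis to day 17 with 3 h of circulation. For tumors measured by PCR, the methods give the same injection days and a harvest after the last one. Nothing states that adjacent liver was absent from the samples. The comparison asks whether liver-resident macrophage transcripts differed between the groups.

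Kupffer cells are seeded before birth and renew themselves in the sinusoid, where they capture bacteria, spent red cells and lipoproteins. Their identity depends on signals from neighbouring cells. Endothelial Notch ligands and TGF-beta family ligands act through RBPJ and SMAD factors, and Csf1 and Il34 act through Csf1r. The nuclear receptor LXR-alpha, encoded by Nr1h3, and the regulator Id3 act inside the cell. In tumors in the liver, these residents lie beside macrophages derived from blood monocytes, which share general macrophage genes but express little Clec4f or Timd4.

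The stretches before the start site are shown for 4 members because 3 of them (Cd5l, Timd4 and Vsig4) had a common pattern across libraries and Marco did not. Each is the 250 bases before the RefSeq start (GRCm38.p6), written 5′ to 3′ on the gene's strand. The other members' stretches are not printed, among them those of Clec4f and Nr1h3, which had the common pattern too. Cd5l lies at chr3:87357631-87357880 (plus strand), Timd4 at chr11:46810549-46810798 (plus strand), Vsig4 at chrX:96293439-96293688 (minus strand) and Marco at chr1:120505025-120505274 (minus strand). Capitals mark matches, on either strand, to any of 5 short motifs, which are GAGGAA (the core bound by PU.1), TGGGAA (RBPJ), TGCTGA (MAF factors), AGGTCA (nuclear receptors) and GGCGCC (SMAD factors).
Cd5l: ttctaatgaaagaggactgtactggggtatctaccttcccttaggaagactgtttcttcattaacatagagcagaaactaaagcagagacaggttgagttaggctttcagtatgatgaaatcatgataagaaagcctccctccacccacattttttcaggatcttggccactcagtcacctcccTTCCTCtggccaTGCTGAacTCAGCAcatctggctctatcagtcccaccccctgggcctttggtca
Timd4: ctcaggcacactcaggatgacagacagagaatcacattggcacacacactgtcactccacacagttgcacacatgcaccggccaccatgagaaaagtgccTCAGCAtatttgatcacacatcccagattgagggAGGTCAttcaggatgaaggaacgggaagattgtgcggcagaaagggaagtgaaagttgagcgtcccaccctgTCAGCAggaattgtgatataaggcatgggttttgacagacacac
Vsig4: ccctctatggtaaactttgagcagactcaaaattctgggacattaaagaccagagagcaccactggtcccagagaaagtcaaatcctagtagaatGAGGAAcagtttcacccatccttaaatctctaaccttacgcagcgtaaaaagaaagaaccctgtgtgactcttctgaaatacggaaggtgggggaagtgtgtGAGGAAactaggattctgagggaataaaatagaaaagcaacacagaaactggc
Marco: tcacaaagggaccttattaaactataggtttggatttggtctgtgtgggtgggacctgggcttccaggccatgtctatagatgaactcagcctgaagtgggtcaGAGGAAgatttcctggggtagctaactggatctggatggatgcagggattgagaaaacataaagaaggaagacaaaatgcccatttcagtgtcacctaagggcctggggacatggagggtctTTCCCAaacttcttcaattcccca
GAGGAA lay in the stretches of 4 of the 9 members (Vsig4, Cd5l, Marco and Id3), where 23.3% of 32851 mouse stretches of the same length hold it. TGCTGA lay in 4 (Clec4f, Timd4, Cd5l and Folr2) against 16.1%, TGGGAA in 3 (Clec4f, Marco and Nr1h3) against 21.6%, AGGTCA in 2 (Clec4f and Timd4) against 14% and GGCGCC in 1 (Nr1h3) against 9.59%. Folr2 and Nr1h3 have 2 start sites each in the table, and a match at either was counted. These matches describe letters only.

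Raw counts summed to between 15529940 and 18401178 per library, and the 9 members held between 0.0104% and 0.033% of them. Levels are given as counts scaled to library size (CPM) after TMM normalization, where 3 counts, taken as the floor, correspond to 0.132 to 0.323 CPM. Control 5 stood apart from the other controls before any member was considered. Across genes, its log2 CPM correlated with those of the treated tumors at r of 0.966 or more and with controls 6 and 7 at 0.73 and 0.659, while controls 6 and 7 correlated at 0.969. The summed level of 16 hepatocyte genes was 689 CPM in control 5, 141000 in control 6, 229000 in control 7, and 3800, 1510 and 2080 in treated tumors 1, 2 and 5. Alb, which encodes albumin, followed them, at 353, 73800, 128000, 1890, 733 and 1060 CPM in the same order. Controls 6 and 7 therefore carried far more liver transcript than the other 4 libraries. No gene checks the treatment labels here, so whether control 5 carries the right label was not tested, and every difference between groups takes the labels as given. The member results are given with and without control 5. The labels do not say whether the libraries came from separate mice, so p-values measure the spread between these libraries.

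Most Kupffer cell genes were abundant in controls 6 and 7 and low in control 5 and in all 3 treated tumors. The summed level of the 9 members was 84, 436 and 437 CPM in controls 5, 6 and 7, against 109, 95.1 and 89.6 in treated tumors 1, 2 and 5. All 9 passed the filter on low counts, and for each of them the ranges of the 2 groups overlapped. Among all 15374 genes tested, 8.31% had treated tumors wholly below controls and 8.87% wholly above. With edgeR's quasi-likelihood test, 0 of 9 members had an adjusted p under 0.05, where the share over all genes was also 0%. At an unadjusted p under 0.05, 5 members (Clec4f, Vsig4, Timd4, Cd5l and Nr1h3) were lower in treated tumors, against 14.6% of all genes, and 0 were higher, against 2.87%. That count of 5 dropped to 2 with library totals, with upper-quartile scaling or without control 6. It was 1 without control 7 or treated tumor 1, and 0 without treated tumor 2 or 5. Over all genes, in either direction, the count fell too, from 2685 of 15374. It was 1661 with library totals, 2457 with upper-quartile scaling and 1316 without control 6. It was 1284 without control 7, and 1214, 990 and 696 without treated tumors 1, 2 and 5. Without control 5, 9026 of 16249 genes and 6 of 9 members were at that level. DESeq2 called 2 members lower (Clec4f and Nr1h3) at an adjusted p under 0.05, against 9.54% of genes, and 0 higher, against 0.994%. By the sign of the estimate alone, 7 of 9 members were lower in treated tumors, against 48.9% of all genes. The median log2 fold change of the members was -1.45, beside 0.02 for all genes tested. In bulk RNA, fewer Kupffer cells, less RNA per Kupffer cell and less liver tissue in the sample cannot be told apart.

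**Figure D1:**
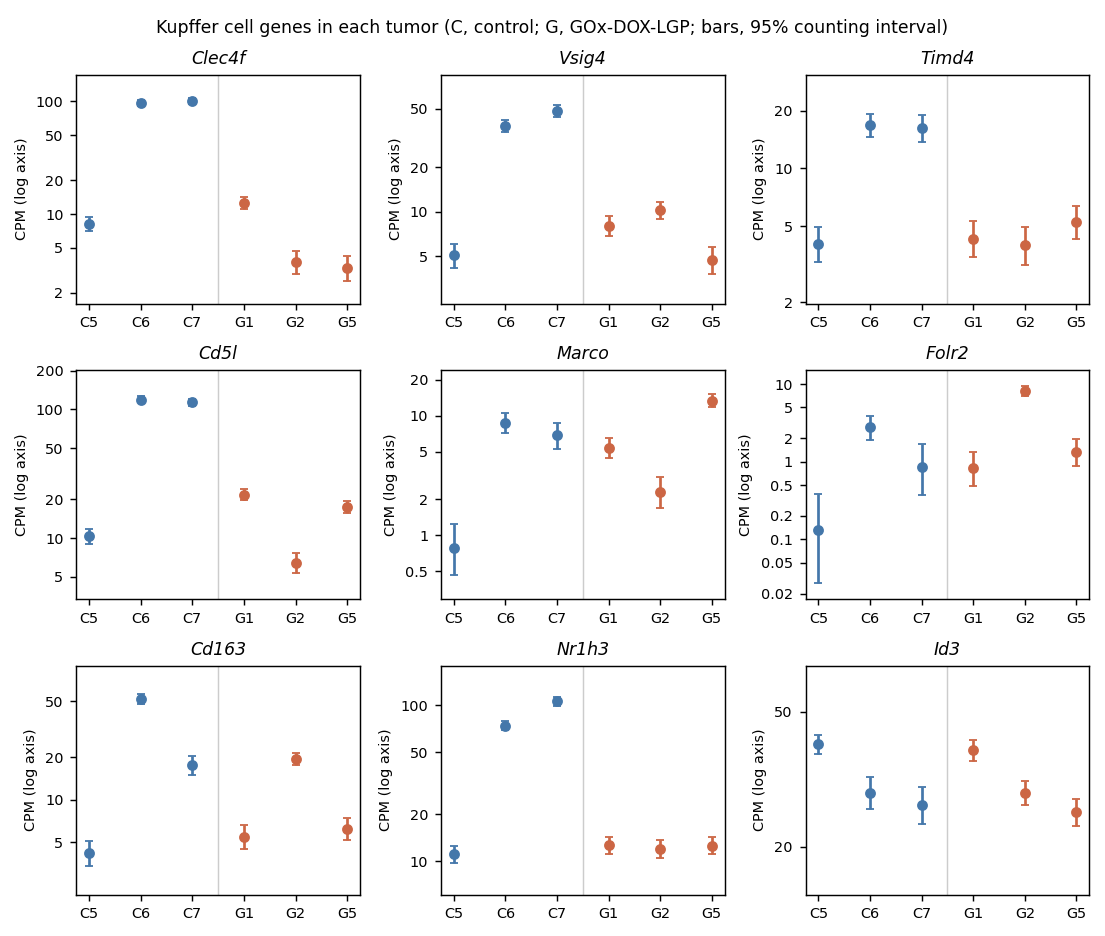
CPM of each Kupffer cell gene in each library on a log axis, with blue points for controls and orange points for GOx-DOX-LGP tumors. Bars are 95% exact Poisson intervals, which cover counting error only. Clec4f, Cd5l, Vsig4, Timd4 and Nr1h3 are high only in controls 6 and 7, whereas Id3 lies between 25.3 and 40.1 CPM in all 6 libraries.

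Clec4f (ENSMUSG00000014542, chr6:83644542-83656187, minus strand) encodes a C-type lectin that binds galactose-bearing glycans and is made by Kupffer cells in the mouse. Gene positions here and below are those of GENCODE M21 on GRCm38. Its level was 8.16 CPM in control 5, 96.8 in control 6 and 101 in control 7, and 12.5, 3.72 and 3.33 CPM in treated tumors 1, 2 and 5. Control 5 thus lay below treated tumor 1, and the other 2 controls lay far above every treated tumor. The log2 fold change was -3.39 ± 1.05 (SE), with an adjusted p of 0.247 by edgeR's quasi-likelihood test and 0.00994 by DESeq2. The exact permutation test (two-sided) gave p = 0.2, where 3 libraries against 3 cannot give less than 0.1. Among the treated tumors, tumor 1 had both the highest Clec4f and the highest hepatocyte level. Control 5 had the lowest hepatocyte level of the 6 libraries, 689 CPM, but more Clec4f than treated tumors 2 and 5. Whether these levels are linked was not tested.

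Cd5l (ENSMUSG00000015854, chr3:87357881-87371073, plus strand), also known as AIM, encodes a secreted scavenger-receptor protein that protects macrophages from apoptosis. It was at 10.4, 119 and 114 CPM in controls 5, 6 and 7, against 21.7, 6.42 and 17.4 in treated tumors 1, 2 and 5. Its log2 fold change was -2.42 ± 0.94 (SE, adjusted p = 0.269 by edgeR's quasi-likelihood test, 0.073 by DESeq2). Per kilobase of exon, Cd5l was the most abundant member in controls, at 39.8 ± 30.1 CPM per kb (SD, n = 3), followed by Clec4f at 27.8 ± 21.2 and Nr1h3 at 25.3 ± 19.1. The 3 means lay within their spread over controls, but within each control Cd5l lay above the other 2. It was at 5.09, 58.5 and 55.9 CPM per kb in controls 5, 6 and 7. Clec4f was at 3.3, 39.2 and 40.8 and Nr1h3 at 4.41, 29.3 and 42 in the same order. Differences between genes were not tested. Cd5l ranked highest in controls 6 and 7, whereas in control 5 Id3 was highest at 22.4 CPM per kb and Cd5l was at 5.09.

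Vsig4 (ENSMUSG00000044206, chrX:96247203-96293438, minus strand), the complement receptor CRIg, takes up particles coated with C3 fragments. Its levels were 5.05, 37.9 and 48.4 CPM in controls 5, 6 and 7, against 8.01, 10.2 and 4.73 in treated tumors 1, 2 and 5. The log2 fold change was -1.99 ± 0.80 (SE, adjusted p = 0.281 by edgeR's quasi-likelihood test). Timd4 (ENSMUSG00000055546, chr11:46810800-46844332, plus strand) encodes TIM-4, the phosphatidylserine receptor with which resident macrophages bind dying cells. It stood at 4.04, 16.8 and 16.2 CPM in the controls, against 4.3, 3.97 and 5.25 in the treated tumors, a log2 fold change of -1.45 ± 0.56 (SE, adjusted p = 0.268 by edgeR's quasi-likelihood test). In both genes, control 5 lay within the treated range.

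Nr1h3 (ENSMUSG00000002108, chr2:91184061-91202834, minus strand), which encodes LXR-alpha, was at 11.1, 73.8 and 106 CPM in controls 5, 6 and 7. Its treated levels spanned the narrowest range of any member, at 12.7, 12 and 12.6 CPM, just above control 5. The log2 fold change was -2.35 ± 0.76 (SE), with an adjusted p of 0.247 by edgeR's quasi-likelihood test and 0.0296 by DESeq2. Hepatocytes also express Nr1h3, and its exons overlap those of Gm13783 on the same strand, so its reads may be shared. Id3 (ENSMUSG00000007872, chr4:136143497-136145755, plus strand), a helix-loop-helix regulator needed for Kupffer cell development, is also expressed by many other cells. It was at 40.1, 28.9 and 26.6 CPM in the controls, against 38.5, 28.9 and 25.3 in the treated tumors, a log2 fold change of -0.05 ± 0.26 (SE, adjusted p = 0.924 by edgeR's quasi-likelihood test). Id3 supplied 47.8% of the members' summed CPM in control 5, 6.63% and 6.08% in controls 6 and 7, and 28.3% to 35.2% in treated tumors.

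Marco, Folr2 and Cd163 had other patterns. Marco (ENSMUSG00000026390, chr1:120474538-120505024, minus strand) encodes a scavenger receptor for bacteria and was at 0.79, 8.73 and 6.89 CPM in controls 5, 6 and 7, against 5.39, 2.3 and 13.4 in treated tumors 1, 2 and 5. Its highest level was thus in a treated tumor, and its log2 fold change was 0.37 ± 0.97 (SE, adjusted p = 0.828 by edgeR's quasi-likelihood test), which turned to -0.13 without control 5 and to -0.44 without treated tumor 5. Folr2 (ENSMUSG00000032725, chr7:101839988-101857194, minus strand) encodes folate receptor beta and had 3 counts in control 5, which is the floor (0.132 CPM, 95% exact Poisson interval 0.0271 to 0.385). It was at 2.8 and 0.861 CPM in controls 6 and 7 and at 0.84, 8.13 and 1.35 CPM in treated tumors 1, 2 and 5. Treated tumor 2 alone was high, and the log2 fold change of 1.48 ± 1.25 (SE, adjusted p = 0.524 by edgeR's quasi-likelihood test) became -0.15 without it. Cd163 (ENSMUSG00000008845, chr6:124304656-124330527, plus strand), the receptor for haptoglobin-haemoglobin complexes, was at 4.21, 51.6 and 17.6 CPM in the controls, against 5.49, 19.5 and 6.24 in the treated tumors, with a log2 fold change of -1.23 ± 0.95 (SE, adjusted p = 0.493 by edgeR's quasi-likelihood test). That estimate was -0.07 without control 6 and -2.03 without treated tumor 2. The antisense gene Gm10602 overlaps Folr2, and whether counting used strand is not stated.

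Without control 5, the same model called 5 of the 9 members lower in treated tumors, where it also called 47.7% of all 16249 genes tested (25.5% lower and 22.2% higher). Clec4f had a log2 fold change of -3.89 (SE 0.55, adjusted p = 0.00138 by edgeR's quasi-likelihood test), Cd5l of -2.91 (SE 0.44, adjusted p = 0.00193 by edgeR), Nr1h3 of -2.82 (SE 0.20, adjusted p = 7.29e-05 by edgeR), Vsig4 of -2.46 (SE 0.33, adjusted p = 0.00101 by edgeR) and Timd4 of -1.84 (SE 0.25, adjusted p = 0.00103 by edgeR). Cd163 was at -1.70 with an adjusted p of 0.0624 by edgeR. Leaving out any other library called 0 genes.

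When the mean log2 CPM of the hepatocyte genes entered the model as a covariate, 0 members were called and the median over members was -0.22. Clec4f was at -1.19 ± 0.41 (SE, unadjusted p = 0.0215, adjusted p = 0.626 by edgeR), Nr1h3 at -0.53, Timd4 at -0.32, Cd5l at -0.28 and Vsig4 at -0.12. Cd163 changed sign, to 0.48, and Marco was at 2.35 ± 0.83 (SE, unadjusted p = 0.0236, adjusted p = 0.635 by edgeR). Folr2 was at 3.23 ± 1.75 (SE). In this fit, 3 of 9 members (Clec4f, Nr1h3 and Marco) had an unadjusted p under 0.05 by edgeR, as had 1111 of 15374 genes. The hepatocyte score separates controls 6 and 7 from the other libraries, and control 5 is the only control with a score near those of the treated tumors.

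**Figure D2:**
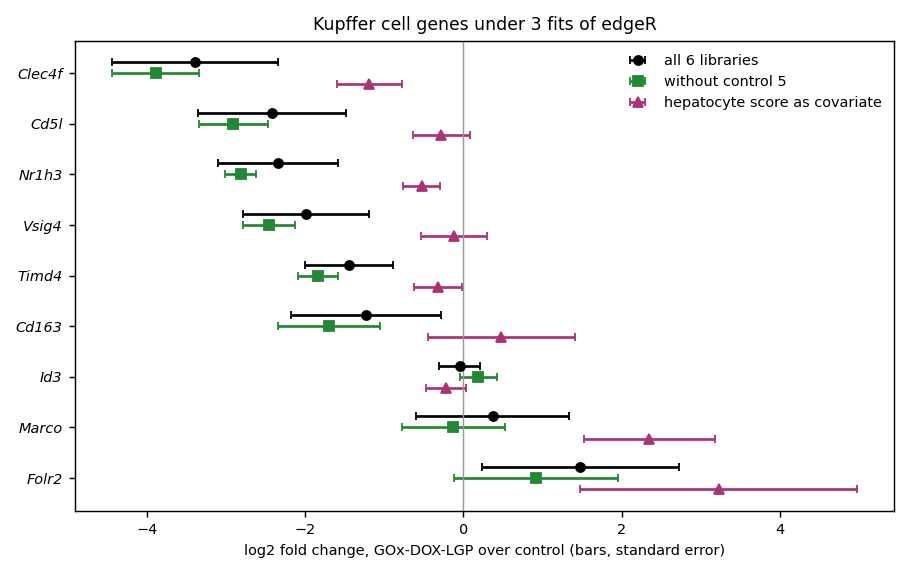
Log2 fold change of each Kupffer cell gene, GOx-DOX-LGP over control, with the standard error as bars, in 3 edgeR fits. Black circles use all 6 libraries, green squares leave out control 5, and purple triangles add the hepatocyte score as a covariate. Clec4f goes from -3.39 to -3.89 and -1.19, and Marco from 0.37 to -0.13 and 2.35.

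Among other Kupffer identity genes, 9 of the 13 tested (of 15 listed) had lower estimates in treated tumors, 7 of them at an unadjusted p under 0.05 (14.6% of all genes), and 1 was higher at that level (2.87% of all genes). None passed edgeR's adjusted threshold, and DESeq2 called 5 lower (9.54% of all genes) and 1 higher (0.994%). Their median log2 fold change was -1.57. Clec1b, a lectin-like receptor, was at 1.93, 18.1 and 15.5 CPM in controls 5, 6 and 7, against 1.73, 0.931 and 2.03 in treated tumors. Slc40a1, the iron exporter ferroportin, was at 20.9, 292 and 367 CPM in the controls, against 35.2, 18.5 and 22.6 in the treated tumors. C6, a complement component that hepatocytes also make, was at 5.31, 302 and 475 CPM in the controls, against 8.35, 6.52 and 7.96 in the treated tumors. Of the 13, 2 lay wholly lower in treated tumors (8.31% of all genes) and 1 wholly higher (8.87%). Fabp7 lay wholly lower, at 1.58, 3.05 and 3.77 CPM in the controls, against 0.989, 0.686 and 0.832 in the treated tumors. Slc16a9 did too, at 0.834, 2.54 and 2.69 CPM, against 0.593, 0.392 and 0.312. DESeq2 called both (adjusted p = 0.0125 and 0.0155), and edgeR did not. Both are named after their values were seen, as are the 4 genes with higher estimates. Il18bp, which encodes a decoy for interleukin-18, was at 21.9, 18.5 and 13.6 CPM in the controls and at 29.1, 31.7 and 47.7 in the treated tumors, with no overlap (log2 fold change 1.00 ± 0.30, SE, adjusted p = 0.247 by edgeR and 0.0394 by DESeq2). Il10ra was at 0.98, Pcolce2 at 0.95 and Hmox1 at 0.56 on the log2 fold change scale.

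Among 21 genes of the Kupffer cell niche, 12 had higher and 9 lower estimates in treated tumors, with a median of 0.11, and 4 were lower at an unadjusted p under 0.05 by edgeR, where 14.6% of all genes were. DESeq2 called 3 of them lower, against 9.54% of all genes, and 0 higher. Bmp10, a ligand of the BMP family, was at 0.658, 4.07 and 6.67 CPM in controls 5, 6 and 7, against 0.494, 0.147 and 0.468 in treated tumors, so that the groups did not overlap. Dll4, a Notch ligand named after its values were seen, also lay wholly lower. It was at 6.93, 9.41 and 7.86 CPM in the controls, against 4.6, 3.53 and 3.8 in the treated tumors (adjusted p = 0.247 by edgeR and 0.00745 by DESeq2). Csf1, the macrophage growth factor, was at 128, 83.8 and 37.3 CPM in the controls, against 137, 211 and 132 in the treated tumors. It lay wholly higher (log2 fold change 0.94 ± 0.48, SE, adjusted p = 0.349 by edgeR). Il34, the other Csf1r ligand, was at 29.3, 5.34 and 1.94 CPM in the controls, against 23.7, 17 and 28.5 in the treated tumors. The 15 partners and targets of LXR had a median of -1.49, with 11 lower and 4 higher estimates. Rxra, which encodes LXR's partner receptor, was at 54, 352 and 538 CPM in the controls, against 60.8, 61.2 and 44.1 in the treated tumors, while Nr1h2 (LXR-beta) was at 44.8, 41.2 and 35.2 CPM in the controls, against 44.6, 49.5 and 44.8 in the treated tumors. The sterol exporters Abcg5 and Abcg8 and the desaturase Scd1, which are also hepatocyte genes, had the most negative values on this list, at -6.06, -6.09 and -5.12. Scd2 and Abcg1 had the most positive, at 1.68 and 1.11, and are named after their values were seen. Scd2 was at 108, 48.6 and 22.2 CPM in the controls, against 190, 205 and 178 in the treated tumors. It was the only gene of the list with no overlap (adjusted p = 0.247 by edgeR and 0.0496 by DESeq2). The 12 genes of haem and iron recycling had a median of -0.32, and the 14 partners in complement and clearance of dying cells had a median of -0.17.

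General macrophage genes did not follow the Kupffer cell genes. Of 16 pan-macrophage genes, 15 had higher estimates in treated tumors, with a median log2 fold change of 0.96, and 4 were higher (2.87% of all genes) and 1 lower (14.6%) at an unadjusted p under 0.05 by edgeR. The summed level of the list was 2850, 1810 and 1280 CPM in controls 5, 6 and 7, against 2620, 5910 and 3610 in treated tumors 1, 2 and 5. The 1 lower gene was Mertk, a receptor for the uptake of dying cells, at 42.9, 42.7 and 47.2 CPM in the controls and 29.3, 31.5 and 31.7 in the treated tumors, with no overlap (log2 fold change -0.52 ± 0.17, SE, adjusted p = 0.247 by edgeR and 0.0163 by DESeq2), and it is named after its values were seen. Csf1r, the receptor for Csf1, was at 115, 118 and 81.5 CPM in the controls, against 72, 173 and 100 in the treated tumors. Cd68, a lysosomal glycoprotein of macrophages, was at 66.4, 55.2 and 39.1 CPM in the controls, against 93.2, 178 and 102 in the treated tumors, with no overlap (log2 fold change 1.21 ± 0.35, SE, adjusted p = 0.247 by edgeR). All 10 monocyte genes had higher estimates, with a median of 1.05. Their summed level was 7880, 2370 and 2420 CPM in controls 5, 6 and 7, against 6870, 8210 and 4330 in treated tumors. Of the list, 3 lay wholly higher in treated tumors (8.87% of all genes). Ccr2, the first on this list, overlapped, at 77, 44.5 and 14.3 CPM in controls, against 47.6, 73.6 and 76.3 in treated tumors. Itgam, which encodes CD11b, was at 11.4, 13.6 and 5.81 CPM in the controls, against 21.7, 66.3 and 45 in the treated tumors, with no overlap. The 14 tumor macrophage genes had a median of 0.6, with 11 higher estimates. Their summed level was 10500, 3900 and 4610 CPM in the controls, against 11300, 9510 and 10300 in the treated tumors. Their mean log2 CPM was 6.88, 6.88 and 6.54, against 7.12, 7.82 and 7.23.

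Set against the pan-macrophage genes, the members' summed level (log2 of the ratio) was -5.09 in control 5, -2.05 and -1.55 in controls 6 and 7, and -4.58, -5.96 and -5.33 in treated tumors 1, 2 and 5. Control 5 again lay within the treated range. The log2 ratio of Clec4f to Csf1r was -3.82, -0.28 and 0.31 in controls and -2.53, -5.54 and -4.91 in treated tumors. For every 100 CPM of pan-macrophage genes there were 0.286, 5.35 and 7.9 CPM of Clec4f in controls 5, 6 and 7 and 0.477, 0.063 and 0.0922 in treated tumors.

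**Figure D3:**
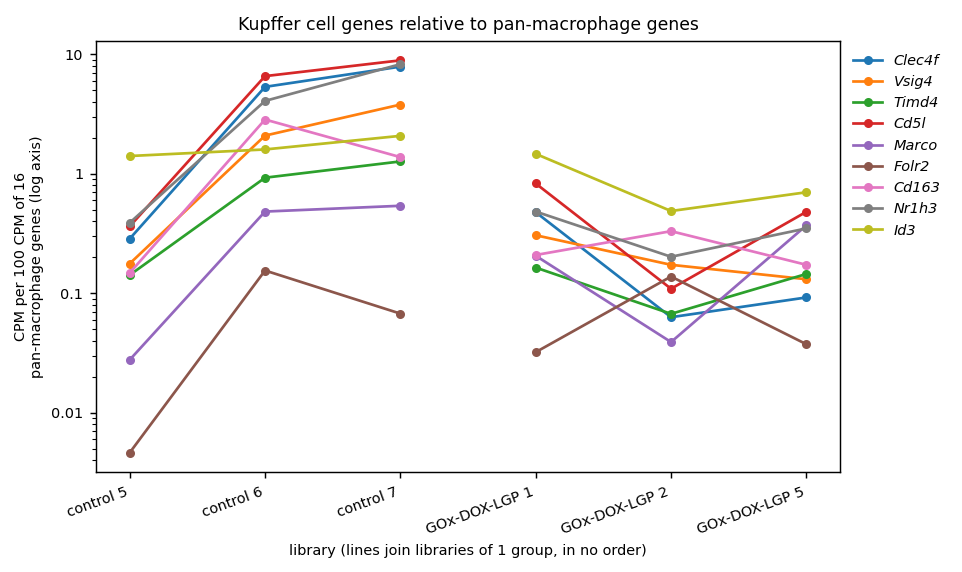
CPM of each Kupffer cell gene per 100 CPM of 16 pan-macrophage genes, on a log axis, by library. Lines only join libraries of 1 group. Clec4f is at 5.35 and 7.9 in controls 6 and 7 and at or below 0.477 in the other 4 libraries, while Id3 changes least.

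Hepatocyte genes moved with the members. The mean log2 CPM of the sinusoidal and pan-endothelial lists was also highest in controls 6 and 7, and stellate cell and fibroblast genes were mixed. All 16 hepatocyte genes had lower estimates in treated tumors (median -5.47), with 16 at an unadjusted p under 0.05 by edgeR and 16 called lower by DESeq2, against 14.6% and 9.54% of all genes. The 12 genes of liver sinusoidal endothelium had a median of -1.6, with 8 lower and 4 higher estimates and 6 called lower by DESeq2 (9.54% of all genes), and their summed level was 579, 917 and 837 CPM in controls 5, 6 and 7, against 620, 1110 and 681 in treated tumors. That sum, highest in treated tumor 2, includes Mrc1, Stab1 and Fcgr2b, which macrophages also express. The 4 higher estimates were those of Bmp2 (1.16), Fcgr2b (0.81), Mrc1 (0.53) and Stab1 (0.18). Clec4g, a lectin of these endothelial cells, was at 0.834, 46 and 55.5 CPM in the controls, against 2.03, 0.441 and 1.87 in the treated tumors. The 10 pan-endothelial genes had a median of -1.15, and 8 of them lay wholly lower in treated tumors, against 8.31% of all genes. Their mean log2 CPM was 3.55, 4.45 and 4.48 in the controls, against 3.25, 3.12 and 3.06 in treated tumors. The 12 genes of stellate cells and fibroblasts had a median of -0.5, with 7 lower and 5 higher estimates, and their summed level of 4680, 1790 and 1700 CPM in controls 5, 6 and 7 and of 4000, 5070 and 1990 in treated tumors did not follow the members. The most negative was Lrat, which stores vitamin A, at 2.28, 38.2 and 37.1 CPM in the controls, against 2.77, 1.32 and 1.46 in the treated tumors. The collagen gene Col1a1 ran the other way, at 2280, 334 and 223 CPM in the controls and 1850, 2260 and 806 in the treated tumors, as did Acta2, with a log2 fold change of 1.14 ± 0.88 (SE). The 10 dendritic cell genes had a median of 0.2 and the 5 tested of 8 B and plasma cell genes had a median of -0.68. All 8 summed to 17.4, 88.2 and 109 CPM in controls 5, 6 and 7, against 11.3, 15 and 14 in treated tumors. None of these lists had a gene at 0 in every library, and their part in the members' difference was not tested beyond the hepatocyte covariate.

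**Figure D4:**
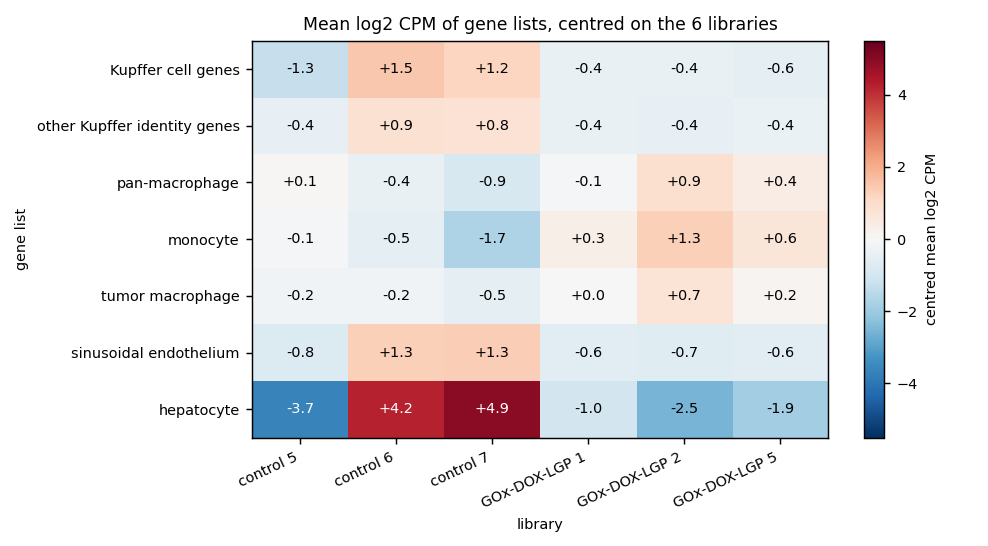
Mean log2 CPM of 7 gene lists (rows) in each library (columns), each row centred on its own mean over the 6 libraries, with red above and blue below it. The 9 Kupffer cell genes, the other Kupffer identity genes, the sinusoidal endothelial genes and the hepatocyte genes are above their mean only in controls 6 and 7, and the pan-macrophage and monocyte genes are highest in treated tumor 2.

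The members also differed among themselves. By the root mean square difference of their centred log2 CPM over the 6 libraries, Vsig4 and Nr1h3 were the closest pair at 0.38, and Clec4f and Folr2 the farthest at 2.63. Timd4 lay closest to the mean pattern of all members, at 0.291, and Folr2 farthest, at 1.522. Outside all lists, the genes nearest to that mean pattern were Gm17767 (0.142), Syn2 (0.154), Col13a1 (0.155), Stap2 (0.175) and Fam174b (0.176), where the median over all genes was 1.115. Stap2, an adaptor protein gene, was at 8.86, 49.8 and 51 CPM in controls 5, 6 and 7, against 12.1, 12.5 and 13.8 in treated tumors.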

How the data were processed

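The authors deposited raw counts per gene for 6 libraries, and a second table of signal values that are those counts divided by 1 constant size factor per library. The latter was read to find the members by symbol and, as an alternative, for the log2 ratio of group means. The labels list Trimmomatic 0.38, HISAT2 2.1.0 and featureCounts 2.0.0, whereas the study's methods name TopHat and HTSeq, and which made the deposited counts is not settled. The genome build, annotation and strand setting are not given in the sources used here. Of 55536 gene identifiers, 55450 were found in GENCODE M21, used for exon lengths. Rows without a symbol held at most 0.0233% of a library's counts.

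Counts were filtered with filterByExpr, scaled with TMM and tested with edgeR 4.0.16 (quasi-likelihood, no covariates, all 6 libraries, Benjamini-Hochberg threshold 0.05) in R 4.3.3. Log2 CPM used a prior count of 2. Alternatives were DESeq2 1.42.0, other scalings, no filter, hepatocyte or pan-macrophage score as covariate, and leaving out each library. The steps were tested on simulated counts, where recovery of changed genes was required at a fixed spread only, not at that of these data. Totals ranged from 15529940 to 18401178 counts, and intervals and floors cover counting error only. The named genes were the 9 members, from each list the first 2 as listed and the 3 with the largest absolute fold change, the 5 genes outside the lists nearest the members' pattern, and Alb. Not all of those are printed. The members and lists were chosen with earlier results of these data known, and the promoter motifs were chosen after the counts had been seen. Figures used Python 3.11.15 and matplotlib 3.10.9.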

Additional observations from a re-analysis of the deposited data

How the results depend on the processing

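DESeq2 called 1516 genes, 2 of them members, where edgeR called 0. Leaving out 1 library gave between 0 and 7745 called genes and between 0 and 5 called members, and both maxima came from leaving out control 5. The other scalings, no filter and both covariates called 0 genes with edgeR. Clec4f, Vsig4, Timd4, Cd5l and Nr1h3 kept a negative estimate under every alternative, with Clec4f from -4.24 to -1.19, Vsig4 from -2.46 to -0.12, Timd4 from -1.84 to -0.32, Cd5l from -2.91 to -0.16 and Nr1h3 from -2.82 to -0.53. With the pan-macrophage score they were at -1.20, -0.85, -0.49, -0.16 and -0.77 in that order. The deposited normalized values gave log2 ratios of group means with the same signs as the fold changes for all 9 members, such as -3.37 for Clec4f. Cd163 turned to 0.48 with the hepatocyte score. Folr2 turned to -0.84 with the pan-macrophage score and to -0.15 without treated tumor 2, and Marco to -0.44 without treated tumor 5 and -0.13 without control 5. Id3 turned to 0.39 with library totals, 0.11 with the upper quartile, 0.02 with no filter, 0.02 without treated tumor 2, 0.12 without treated tumor 5 and 0.19 without control 5. Library totals moved the median of all genes to 0.51 and the upper quartile to 0.19, and leaving out 1 library gave Folr2 up to 2.93, Marco up to 0.88 and Id3 down to -0.21. The cause of these reversals was not tested. No paired analysis was run because nothing in the labels pairs a control library with a treated library. With 3 libraries a group, no exact permutation p could go below 0.1.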

Other observations

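Several macrophage genes had their highest level in treated tumor 2. They were picked after their values had been seen, from no fixed list, and were not tested as a set. F13a1, a transglutaminase gene of monocytes and resident macrophages, was at 9.21, 38.4 and 9.69 CPM in controls 5, 6 and 7, against 30.2, 185 and 49.1 in treated tumors 1, 2 and 5. Mrc1, the mannose receptor gene, was at 390 CPM in that tumor and at no more than 209 CPM in the other libraries. Stab1, a scavenger receptor gene, was at 165 CPM there and at most 125 CPM elsewhere, in control 6. Lyz2 was at 2260 CPM there and at most 989 CPM elsewhere. Among the members, Folr2 was highest there, at 8.13 CPM, while Cd163 at 19.5 CPM was the highest treated value but lay below the 51.6 CPM of control 6. In the same tumor Cd5l was at 6.42 CPM, its lowest level in the 6 libraries.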
